A study of Homo sapiens with 6 samples.

Results

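The protease-activated receptors and the tissue factor pathway were followed in 8 genes, read by 15 of the 22283 probe sets of the array. The genes were the receptors F2RL1, F2R and F2RL2, the clotting initiator F3, the inhibitors TFPI and TFPI2, and the anticoagulant receptors THBD and PROCR, out of 11964 genes that the array names. All probe sets that the array annotation gives to one of these genes were taken, which was 13, and the 2 probe sets of F2RL1 were assigned by the rule that chose the members. The genes were selected on their signal differences between siPTHrP and siLuc arrays, so that contrast is given as a description, with no test of any of the 8 genes.

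The cells were MDA-MB-231, a permanent line derived from human breast cancer that has lost many epithelial traits. They received either siPTHrP, an siRNA against parathyroid hormone-related protein, or the control siRNA siLuc by electroporation, and their total RNA was isolated on day 3. There were 3 independent experiments, each with 1 siPTHrP and 1 siLuc array, so that each group held 3 arrays, and all cells of both groups had been electroporated. The numbers follow the titles, except that 1 siLuc array has no number and was assigned to experiment 1, the one left over. For the siLuc array of experiment 3 the description gives experiment 2 instead. How many siRNA sequences were used is not given in the sources used here, and the targeted transcript was not analysed here, so the knockdown was not checked.

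Protease-activated receptors are G protein-coupled receptors that a protease switches on by cutting their extracellular end, which then acts as a tethered ligand. Thrombin cuts PAR1 (F2R) and PAR3 (F2RL2), whereas PAR2 (F2RL1) is cut by trypsin-like proteases and by the complex of tissue factor with clotting factor VIIa. Tissue factor (F3) is the membrane protein that starts clotting, and in breast cancer cells its complex with factor VIIa is known to signal through PAR2. TFPI restrains that complex, TFPI2 is a related Kunitz-type inhibitor of plasmin and trypsin, and thrombomodulin (THBD) and the endothelial protein C receptor (PROCR) turn thrombin to the activation of protein C.

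The promoters of F2RL1 and F3 are shown because these genes had one direction in all 3 experiments as numbered by title, opposite to each other, on probe sets that passed the filter described below and are not of the kind that can match other transcripts. Both sequences are from RefSeq on GRCh38.p14 and run from 250 bases before to 50 bases after the gene's start, and 6 of the 8 genes matched an entry in that table. Capitals mark letters of 4 motifs searched on both strands: TGANTCA (AP-1), TGACGTCA (the cAMP response element), GGGCGG (the GC box) and GCGGGGGCG (the EGR site, which can overlap a GC box).
F2RL1, chr5:76818780-76819079, plus strand: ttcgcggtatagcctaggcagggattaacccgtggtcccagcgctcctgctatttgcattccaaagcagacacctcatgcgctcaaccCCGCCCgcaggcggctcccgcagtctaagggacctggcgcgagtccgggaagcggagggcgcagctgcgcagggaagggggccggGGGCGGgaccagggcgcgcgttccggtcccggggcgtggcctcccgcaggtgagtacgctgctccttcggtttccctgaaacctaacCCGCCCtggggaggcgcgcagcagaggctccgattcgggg
F3, chr1:94541710-94542009, minus strand: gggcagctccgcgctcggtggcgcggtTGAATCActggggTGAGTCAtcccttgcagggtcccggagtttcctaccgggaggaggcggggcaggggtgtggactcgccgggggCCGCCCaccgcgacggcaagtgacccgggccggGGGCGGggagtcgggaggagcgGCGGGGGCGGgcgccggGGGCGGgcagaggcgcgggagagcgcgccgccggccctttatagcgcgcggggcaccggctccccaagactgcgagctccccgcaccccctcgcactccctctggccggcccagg

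The F2RL1 window held 3 GC boxes and no match to the other 3 motifs. The F3 window held 2 AP-1 matches, 4 GC boxes and 1 EGR site, whose letters overlap one of the GC boxes, and no cAMP response element. Over all 35116 windows of the same length in the table, 7.71% held an AP-1 match, 1.85% a cAMP response element, 45% a GC box and 5.07% an EGR site. These matches describe letters only.

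One siLuc array stood apart, the unnumbered one assigned to experiment 1. Its Spearman rank correlation with the other 5 arrays, across probe sets, was 0.716 to 0.725, and those 5 correlated with each other at 0.882 to 0.960. Where leaving out experiment 1 moved a log2 fold change of the 8 genes by more than 1.5 times, the value without it is given as well. Of 13329 probe sets kept by a filter on dim signal (a mean signal of about 376), limma with the experiment as a block called 0 at a Benjamini-Hochberg adjusted p under 0.05 (0%), while 903 higher (6.77%) and 715 lower (5.36%) had an unadjusted p under 0.05. The count of 0 became 33, 47 and 215 when experiment 1, 2 or 3 was left out, and 177 with array weights. Among markers of the cell line, 8 of 10 passed the filter, among them vimentin and CD44, and SPARC and TGFBI did not. Of 10 luminal and epithelial markers 7 passed, namely XBP1, KRT19, ESR1, TFF1, GATA3, FOXA1 and ERBB2, and CDH1, EPCAM and PGR did not. Mean signals in siPTHrP and siLuc cells were 428 and 941 for ESR1, 523 and 593 for FOXA1, and 886 and 602 for TFF1. Those of XBP1 were 3146 and 1992, and those of vimentin 116123 and 136582. Passing the filter at such low signals does not show that a marker was expressed.

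F2RL1 was higher in siPTHrP cells in every experiment and on both of its probe sets. The brighter probe set had a signal of 13166, 8535 and 13743 on the siPTHrP arrays of experiments 1, 2 and 3, against 4671.7, 4673 and 6599 on the siLuc arrays. The lowest siPTHrP array lay above the highest siLuc array. The means were 11815 ± 2855 and 5315 ± 1112 (SD, n = 3 each), a log2 fold change of 1.14 (SE 0.19) or 2.20-fold. The second probe set had 12863, 10734 and 9329 on the siPTHrP arrays and 5896.9, 4706 and 3393 on the siLuc arrays. Again no siLuc array reached the siPTHrP group. Its log2 fold change was 1.26 (SE 0.17) or 2.39-fold, and within the experiments the 2 probe sets together spanned 1.82-fold to 2.81-fold. With the siLuc arrays of experiments 2 and 3 exchanged they spanned 1.29-fold to 3.15-fold.

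The difference in F2RL1 was large for a gene of its brightness. Among the 1204 kept probe sets whose mean level was at least that of the second probe set, its log2 fold change was the 1st in rank, and the brighter probe set ranked 3rd among 1070. Among all 13329 the second and the brighter ranked 257 and 377 from the highest, since dim probe sets had wider differences. This rank describes values that had helped choose the gene. Without experiment 1 the log2 fold changes were 0.96 on the brighter and 1.32 on the second probe set.

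**Figure D1:**
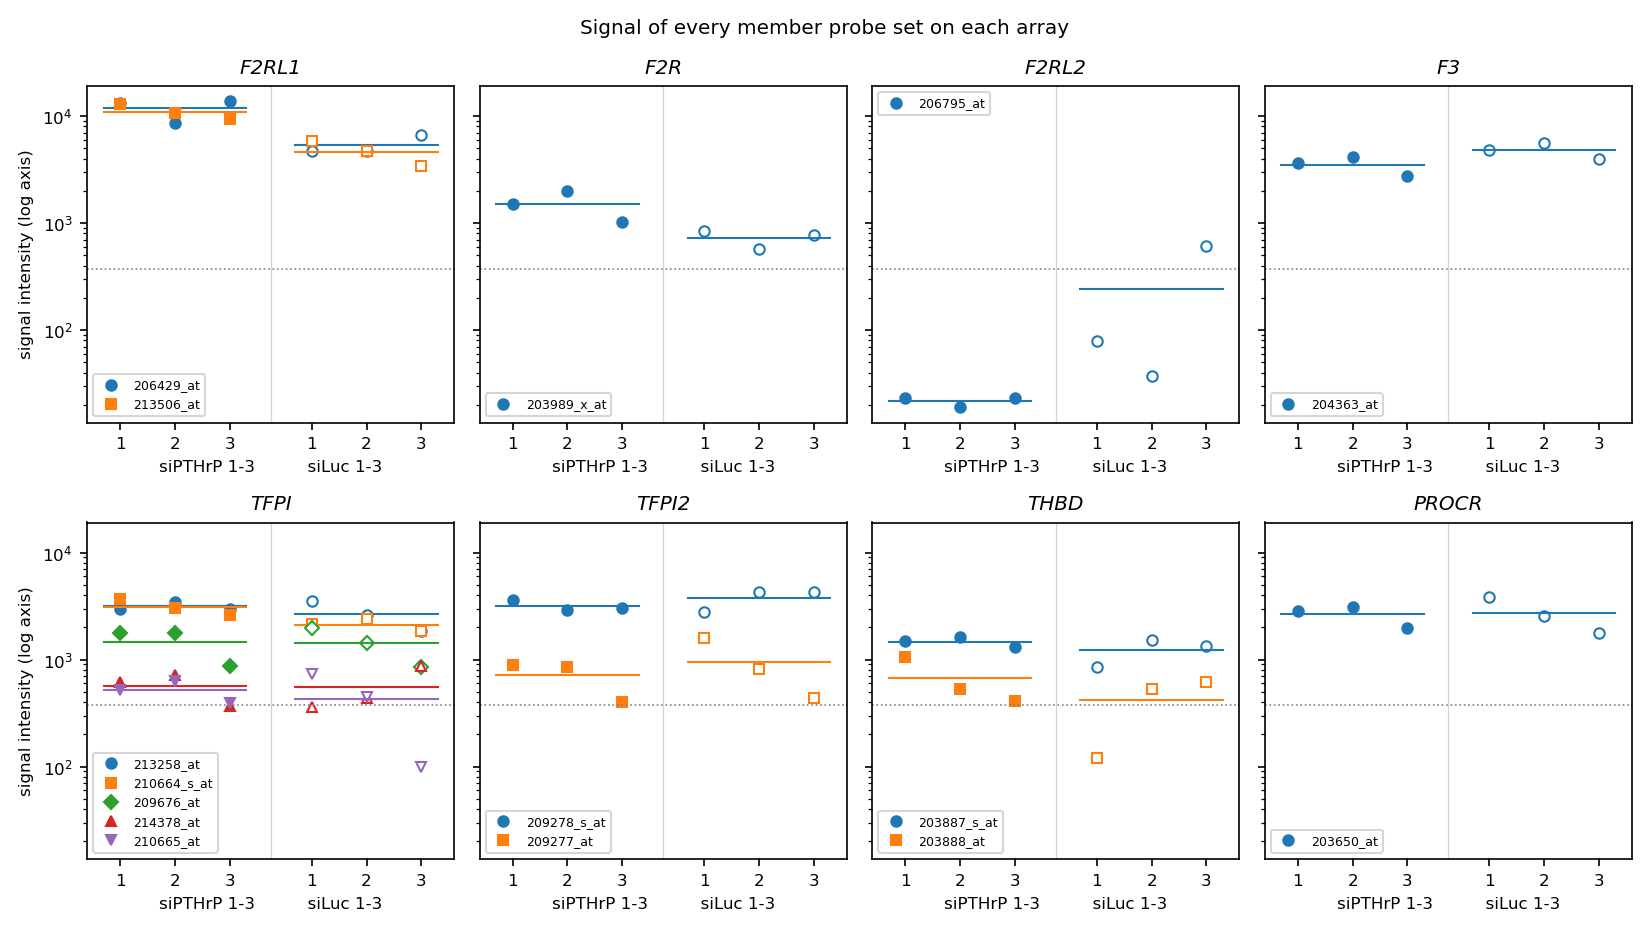
Signal intensity (log axis) of each probe set of the 8 genes on the 3 siPTHrP arrays (filled) and the 3 siLuc arrays (open), with group means as lines and the signal of about 376 that the filter corresponds to as a dotted line. Both F2RL1 probe sets and the F2R probe set lie higher on all siPTHrP arrays, and F2RL2 reaches the dotted line on 1 siLuc array only.

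F2R, the thrombin receptor PAR1, was also higher in siPTHrP cells, but unevenly. Its single probe set gave 1510, 1998 and 1025 on the siPTHrP arrays of experiments 1, 2 and 3, against 847.8, 568 and 777 on the siLuc arrays. The groups did not overlap, although the siPTHrP array of experiment 3 came close to the siLuc range. The means were 1511 ± 487 and 731 ± 146 (SD, n = 3 each), a log2 fold change of 1.00 (SE 0.40). By experiment the ratio was 1.77-fold, 3.45-fold and 1.31-fold, and without experiment 2 the log2 fold change was 0.61. The probe set is of the _x_at kind, whose probes can also match other transcripts.

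F2RL2, the PAR3 gene, was too dim to follow. Its probe set gave 23, 19 and 23 on the siPTHrP arrays and 79.9, 37 and 616 on the siLuc arrays. It lay under the signal of the filter on 5 of the 6 arrays, and the siLuc array of experiment 3 was the exception. All siPTHrP values lay below the siLuc values, but the probe set did not pass the filter, and no fold change is drawn from it. F2RL3, the gene of PAR4, did not pass the filter either.

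The 3 receptor genes lie next to each other on chromosome 5 in the order F2RL2, F2R and F2RL1, with no other protein-coding gene starting between them in RefSeq. Neighbours were looked up by position after the values were seen. Of the 8 protein-coding genes looked up, 4 on either side, AGGF1, an angiogenic factor gene, was the only one with a kept probe set that the array annotation names. AGGF1 had 1390 ± 418 in siPTHrP cells and 1308 ± 329 in siLuc cells (SD, n = 3 each), a log2 fold change of 0.07 (SE 0.31), and its groups overlapped. The probe sets of IQGAP2, SV2C and CRHBP did not pass the filter, and ANKDD1B, POC5, S100Z and ZBED3 are not named on the array.

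F3, tissue factor, was lower in siPTHrP cells, by an amount whose evenness depends on how the arrays are paired. Its signal was 3671, 4109 and 2770 on the siPTHrP arrays of experiments 1, 2 and 3, against 4782.8, 5661 and 3956 on the siLuc arrays. Within each experiment the siPTHrP array was lower, at 0.768-fold, 0.727-fold and 0.701-fold. Across experiments the groups overlapped, since the siPTHrP array of experiment 2 exceeded the siLuc array of experiment 3. The means were 3517 ± 683 and 4800 ± 853 (SD, n = 3 each), and the log2 fold change was -0.45 (SE 0.19). The standard deviation of the 3 within-experiment log2 differences was 0.066, and 1.7% of the 13329 kept probe sets had a smaller one. Most of these 13329 were dimmer than F3, with 2215 at least as bright, and dim probe sets had wider differences. The share at the brightness of F3 was not counted, and these differences had helped choose the gene. With the siLuc arrays of experiments 2 and 3 exchanged, an alternative chosen after seeing the data, the ratios were 0.768-fold, 1.04-fold and 0.491-fold. F3 was then lower in 2 of 3 experiments, the standard deviation was 0.544, and the log2 fold change was the same with a wider SE of 0.27.

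**Figure D2:**
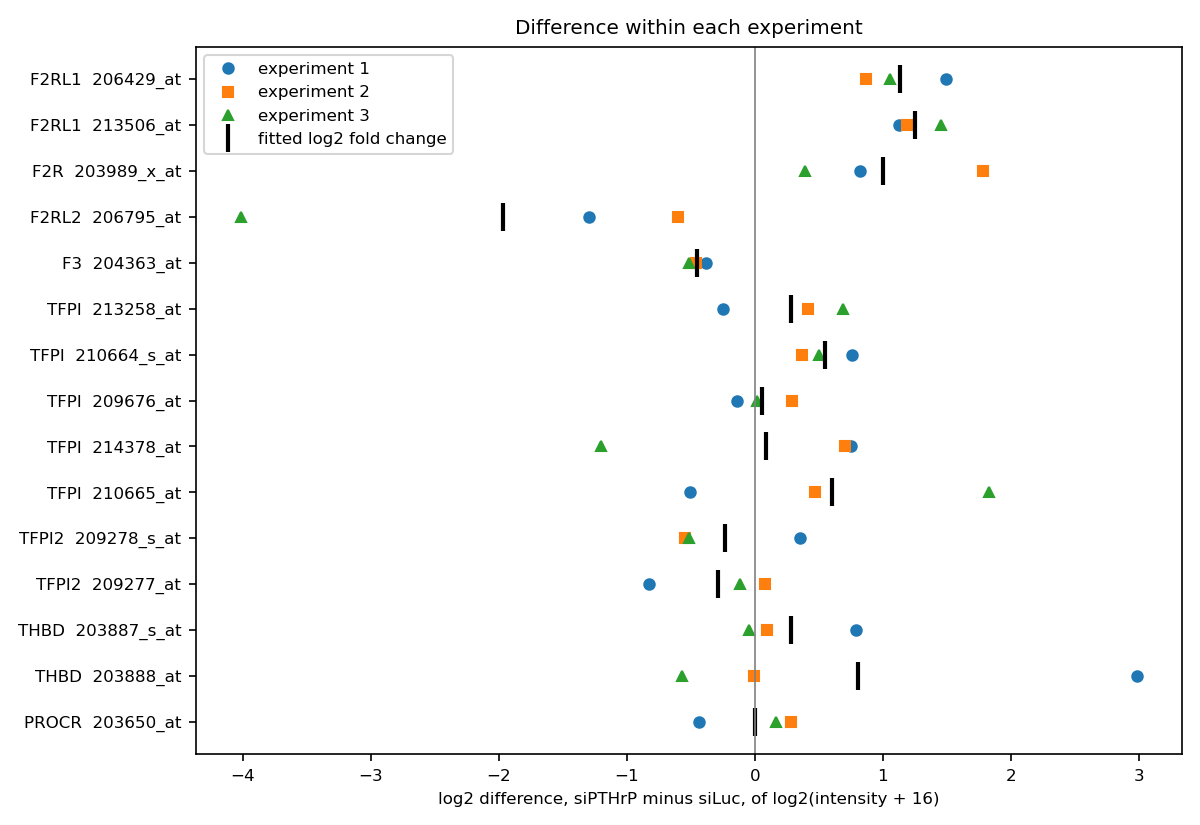
Log2 difference, siPTHrP minus siLuc, for each of the 15 probe sets (rows) in experiments 1, 2 and 3 (points), with the fitted log2 fold change as a black tick. With arrays numbered by title, the 3 points of F3 lie between -0.51 and -0.38, those of both F2RL1 probe sets between 0.87 and 1.49, while the points of most TFPI, TFPI2, THBD and PROCR probe sets fall on both sides of 0.

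TFPI, the main inhibitor of the tissue factor complex, was read by 5 probe sets that did not give one picture. The fitted log2 fold change was above 0 on all 5 with all arrays, from 0.05 to 0.60, and 3 of them lay below 0 in at least 1 alternative that left out arrays. In the pairing by title, only the second brightest was higher in all 3 experiments. That probe set had 3669, 3064 and 2618 on the siPTHrP arrays and 2156.6, 2371 and 1841 on the siLuc arrays. Its groups did not overlap, and its log2 fold change was 0.55 (SE 0.23) or 1.46-fold. The brightest probe set had 2949, 3483 and 2993 on the siPTHrP arrays and 3498, 2604 and 1853 on the siLuc arrays. Here the siLuc array of experiment 1 was the highest of all 6, and the log2 fold change was 0.29 (SE 0.25), and 0.55 (SE 0.23) without experiment 1. The next probe set in brightness gave 0.05 (SE 0.31), and 0.15 without experiment 1. The 2 dimmest probe sets gave 0.09 (SE 0.61) and 0.60 (SE 0.70), with values on both sides of 0 within the experiments. Without experiment 1 these were -0.25 and 1.15.

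TFPI2 was lower in the fit on both of its probe sets, but not in every experiment. The brighter probe set had 3573, 2929 and 3020 on the siPTHrP arrays and 2788.5, 4273 and 4326 on the siLuc arrays. The siLuc array of experiment 1 was the lowest of the 6, so that the ratio was 1.28-fold in experiment 1 and 0.687-fold and 0.699-fold in experiments 2 and 3. The log2 fold change was -0.23 (SE 0.24), and without experiment 1 it was -0.53. The dimmer probe set had 891, 857 and 400 on the siPTHrP arrays and 1594.3, 810 and 435 on the siLuc arrays. Its order in experiment 1 was the opposite one, with 0.563-fold, and its log2 fold change was -0.29 (SE 0.45), and -0.02 without experiment 1.

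THBD stood higher with siPTHrP mainly in experiment 1. The brighter probe set had 1504, 1621 and 1301 on the siPTHrP arrays and 860.7, 1520 and 1341 on the siLuc arrays. The siLuc array of experiment 1 alone was low, and the log2 fold change of 0.28 (SE 0.33) became 0.02 without that experiment. On the dimmer probe set the values were 1060, 529 and 412 on the siPTHrP arrays and 119.6, 530 and 619 on the siLuc arrays. The ratio of 7.94-fold in experiment 1 stood against 0.998-fold and 0.674-fold in experiments 2 and 3. Its log2 fold change of 0.81 (SE 0.77) was -0.29 without experiment 1.

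PROCR lay near the same level in both groups. It had 2850, 3101 and 1985 on the siPTHrP arrays and 3862.6, 2542 and 1770 on the siLuc arrays. The group ranges overlapped almost fully, with means of 2645 ± 586 and 2725 ± 1058 (SD, n = 3 each). The log2 fold change was 0.00 (SE 0.24), and 0.23 (SE 0.23) without experiment 1, with the siPTHrP array lower in experiment 1 and higher in experiments 2 and 3.

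Taking the brightest probe set of each gene and leaving out F2RL2, which did not pass the filter, 5 of 7 genes were higher and 2 lower with siPTHrP. Of all 13329 kept probe sets 6994 were higher and 6335 lower. F2RL1 and F2R were higher in 3 of 3 experiments, and F3 was lower in 3 of 3 as paired by title. Among all kept probe sets 19.1% were higher and 19.0% lower in 3 of 3 experiments. The groups did not overlap for F2RL1 and F2R on the higher side, where 8.94% of kept probe sets did so, and for 0 of the 7 genes on the lower side, where the share was 9.69%. The median log2 fold change of the 7 genes was 0.28, and that of all kept probe sets was 0.03. These shares are set beside counts that had been known when the genes were chosen. In RNA of a whole culture, more cells with a transcript and more of it per cell cannot be told apart.

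**Figure D3:**
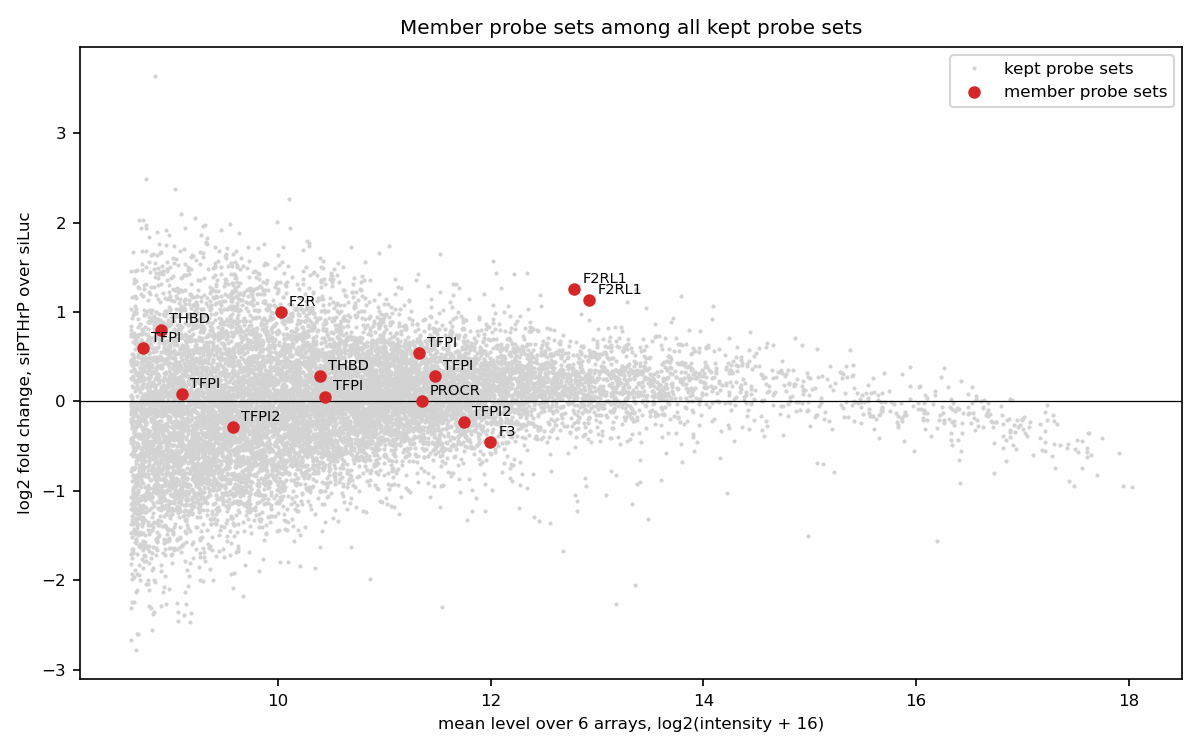
Log2 fold change, siPTHrP over siLuc, against the mean level over 6 arrays for 13329 kept probe sets (grey) and the 14 kept probe sets of the 8 genes (red). The 2 F2RL1 points, at 1.14 and 1.26, lie at the upper edge of the cloud at their brightness, and the other red points lie within it.

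**Figure D4:**
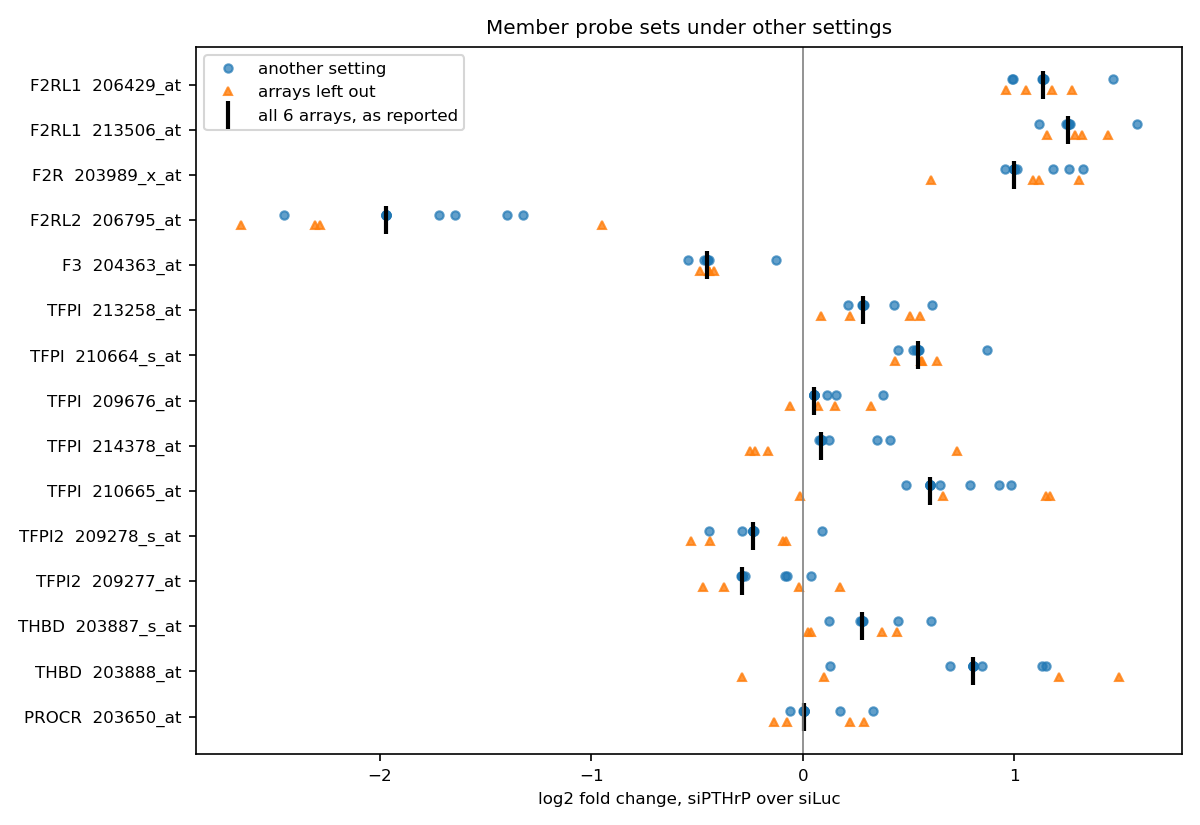
Log2 fold change, siPTHrP over siLuc, of each of the 15 probe sets (rows) with all 6 arrays (black tick), under other settings of scaling, offset, filter or weights (circles) and with arrays left out (triangles). All points of F2RL1, F2R and F3 stay on 1 side of 0, and those of both TFPI2 probe sets, the dimmer THBD probe set, PROCR and the 3 dimmest TFPI probe sets do not. Changing only the filter, the block or the trend cannot move a point.

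THBD, PROCR and TFPI are also known as genes of endothelial cells. Of 10 endothelial markers on the array, CDH5, CLDN5, EMCN, FLT1, KDR, TEK and VWF did not pass the filter, and PECAM1, TIE1 and ROBO4 did. The summed signal of the 10 markers was 3659 to 4560 on siPTHrP arrays and 5494 to 9932 on siLuc arrays. PECAM1 had 564 ± 199 and 1510 ± 480 (SD, n = 3 each). The part of these signals in the values of THBD, PROCR and TFPI was not tested. Of 8 platelet markers 4 passed the filter, of 9 leukocyte markers 3, and of 10 fibroblast markers 4. Their summed signals were 3199 to 3993, 1865 to 2539 and 4467 to 6007 on siPTHrP arrays, and 3754 to 5694, 2061 to 6007 and 6788 to 8502 on siLuc arrays. Low signals were lower on siPTHrP arrays across the whole array. The median signal was 559.0 to 593.0 there and 652.0 to 887.2 on siLuc arrays. With no filter the median log2 fold change of all probe sets was -0.163. The lower sums are therefore not read as a change in these cell types' transcripts.

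The proteases that can activate these receptors gave no call. Of 18 listed genes 8 had a kept probe set, 3 higher and 5 lower, their median being -0.05 on the log2 scale, and limma passed 0 in either direction. KLK5, a kallikrein that activates PAR2, had 500 ± 284 in siPTHrP cells and 1444 ± 874 in siLuc cells (SD, n = 3 each) and differed by -1.51 on the log2 scale (SE 0.49, limma adjusted p = 0.356). PRSS2, anionic trypsinogen, stood at 0.46 (SE 0.31, limma adjusted p = 0.526) on a probe set of the _x_at kind, and the membrane protease HPN at -1.10 (SE 0.75, limma adjusted p = 0.534). HPN had 273 ± 94 in siPTHrP cells, under the signal of the filter, and 738 ± 631 in siLuc cells (SD, n = 3 each). It passed the filter through the siLuc arrays.

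The G proteins and effectors that carry the receptors' signal were divided. Of 22 measured genes 10 were higher and 12 lower, with a median of -0.07, and 0 passed. GNAI3, an inhibitory G protein subunit, had 10055 ± 533 and 6934 ± 501 in siPTHrP and siLuc cells (SD, n = 3 each), a log2 difference of 0.54 (SE 0.17, limma adjusted p = 0.345). The arrestin ARRB1, which couples PAR2 to its internalisation, stood at -0.91 (SE 0.32, limma adjusted p = 0.374) and GNA12, which links receptors to RhoA, at -0.80 (SE 0.34, limma adjusted p = 0.402). For GNAQ, the subunit that couples these receptors to phospholipase C, the log2 fold change was -0.40 (SE 0.31) on a probe set of the _x_at kind.

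Genes of receptor trafficking were higher in 9 of 12, with a median of 0.21, and 0 passed. Of all 13329 kept probe sets 6994 were higher, with a median of 0.03. With the filter at the 60th percentile, which keeps brighter probe sets, the median was 0.09. The list was not compared with probe sets of its own brightness. AP2M1, a subunit of the clathrin adaptor, stood at 0.61 (SE 0.21, limma adjusted p = 0.361), the membrane glycoprotein BSG at 0.38 (SE 0.17, limma adjusted p = 0.410) and RAB5A, a GTPase of early endosomes, at 0.30 (SE 0.18, limma adjusted p = 0.494).

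Clotting factors were mostly dim, with 7 of 18 genes measured. Of these 3 were higher and 4 lower, the median was -0.56, and 0 passed. F7, the plasma partner of tissue factor, had 438 ± 254 in siPTHrP cells and 1310 ± 934 in siLuc cells (SD, n = 3 each), a log2 difference of -1.37 (SE 0.57, limma adjusted p = 0.402), with -2.76, -0.55 and -0.79 in experiments 1, 2 and 3. F13A1, the factor XIII subunit, stood at -1.25 (SE 0.59, limma adjusted p = 0.429), and VKORC1, an enzyme of the vitamin K cycle, at 0.33 (SE 0.19, limma adjusted p = 0.485). F13A1 had 311 ± 79 in siPTHrP cells, under the signal of the filter, and 860 ± 546 in siLuc cells (SD, n = 3 each). It passed the filter through the siLuc arrays, and the list's median includes it. The genes of prothrombin (F2), factor X (F10) and factor V (F5) did not pass the filter.

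Anticoagulant genes, a list that includes TFPI, TFPI2, THBD and PROCR, were higher in 5 of 8 measured, with a median of 0.14, and 0 passed. ANXA5, annexin A5, which covers phosphatidylserine, had 30506 ± 1583 in siPTHrP cells and 20239 ± 4058 in siLuc cells (SD, n = 3 each), a log2 difference of 0.61 (SE 0.16, limma adjusted p = 0.324). PROS1, protein S, stood at 0.34 (SE 0.22, limma adjusted p = 0.521). TFPI is described above.

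Partners of tissue factor at the membrane were higher in 8 of 12, with a median of 0.10, and 0 passed. ITGA6, an integrin chain, stood at -1.08 (SE 0.24, limma adjusted p = 0.322), P4HB, protein disulfide isomerase, at 0.61 (SE 0.29, limma adjusted p = 0.429) and CAV1, caveolin 1, at 0.25 (SE 0.18, limma adjusted p = 0.551).

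Genes known to respond to PAR and tissue factor signalling had a median log2 fold change of -0.01 over 12 measured genes, 4 higher and 8 lower, and 0 passed. CCN1, a matricellular protein induced through both PAR1 and PAR2, had 42217 ± 5981 in siPTHrP cells and 51247 ± 14351 in siLuc cells (SD, n = 3 each), a log2 difference of -0.25 (SE 0.18, limma adjusted p = 0.566). IL1B stood at -0.30 (SE 0.24, limma adjusted p = 0.595) and the adhesion molecule ICAM1 at 0.47 (SE 0.54, limma adjusted p = 0.719), with 2.47, -0.57 and -0.50 in experiments 1, 2 and 3. The chemokine CXCL8 gave -0.01 (SE 0.43) on a probe set of the _x_at kind, and CCN2 gave 0.10 (SE 0.18).

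**Figure D5:**
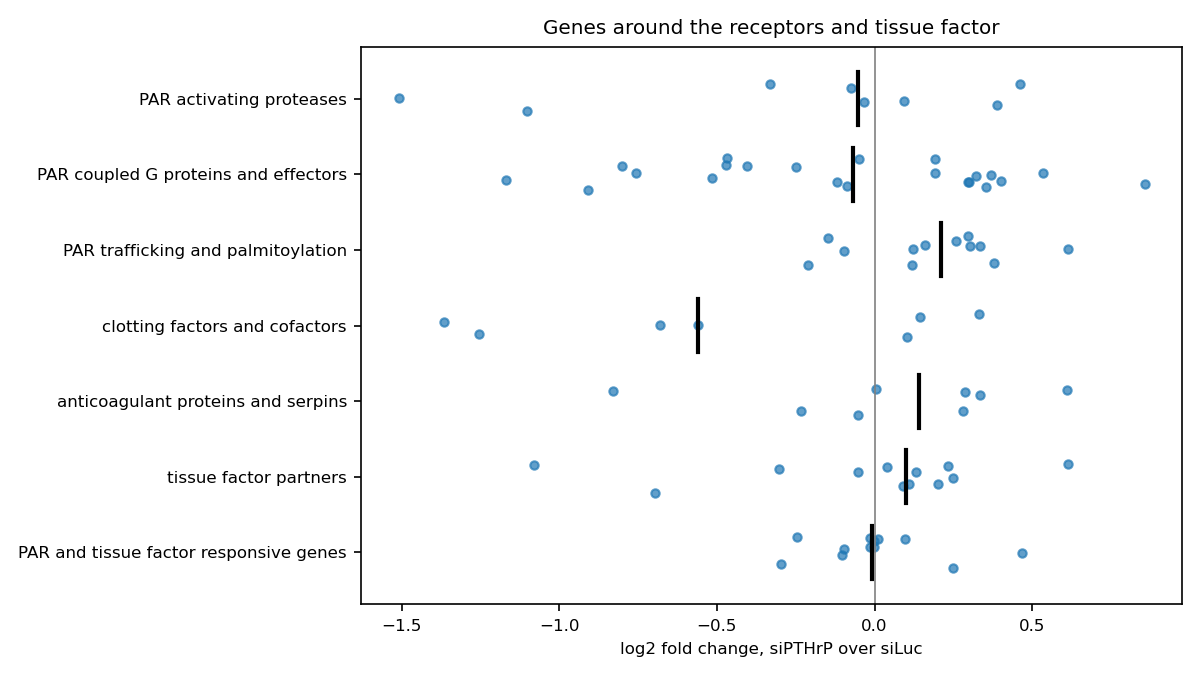
Log2 fold change, siPTHrP over siLuc, of each measured gene (points) in 7 lists around the receptors and tissue factor, with each list's median as a black line. The medians lie between -0.56 for clotting factors and 0.21 for receptor trafficking, and the 12 responsive genes have a median of -0.01. Clotting factors were mostly dim, and low signals were lower on siPTHrP arrays across the whole array. The median of all kept probe sets was 0.03.

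Over the 6 arrays, the genes whose log2 levels ran closest to the brighter F2RL1 probe set among 8114 candidates were KIFBP, SLC38A2, MARCHF6 and HNRNPH1. Their Pearson correlations across arrays were 0.994, 0.993, 0.986 and 0.983, and 0.996, 0.998, 0.988 and 0.977 over the 5 arrays without the siLuc array of experiment 1. For F3 they were UBE2H, MYH10, SPA17 and ADGRE1, at 0.988, 0.987, 0.986 and 0.984, and at 0.998, 0.986, 0.989 and 0.992 over 5 arrays. These points share the grouping by siRNA and each array's scaling, and the highest values among so many candidates over 6 arrays are a description only.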

How the data were processed

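Array signals of 6 RNAs (3 siPTHrP, 3 siLuc) were analysed. Values as deposited by the authors were linear intensities from MAS5 according to the submitters' processing notes, which give no version or settings here. The trimmed mean (2% at each end) lay at 1500 to 1501 on all arrays, so this scaling was kept. It did not align the medians, which were 559.0 to 593.0 on siPTHrP arrays. They were 887.2, 652.0 and 659.0 on the siLuc arrays of experiments 1, 2 and 3. The geometric mean of the hybridisation controls was 231349 on the siLuc array of experiment 1 and 9127 to 34380 on the others.

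Groups came from titles and descriptions. One siLuc sample has no number and was assigned to experiment 1, the one left over. For another, title (3) and description (2) disagree, and the title decided, with the exchanged pairing as an alternative added after seeing the data. No pairing that moves the unnumbered array was tried. The experiment was a block, as the submitters' design text pairs RNAs within an experiment. Deviations from group means of same-experiment pairs correlated at -0.012, 0.157 and 0.157. Pairs from different experiments correlated at -0.206 to 0.132. Among these, the exchanged pairs had -0.113 (siPTHrP 2 with siLuc 3) and -0.206 (siPTHrP 3 with siLuc 2).

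With R 4.3.3 and limma 3.58.1, 68 controls were left out and probe sets kept where the mean of log2(intensity + 16) reached its 40th percentile (8.61). The fit used lmFit and eBayes with an intensity trend, had 2 residual degrees of freedom, and was tested on simulated data. All fold changes, siPTHrP over siLuc, are of log2(intensity + 16), and the offset shrinks those of dim probe sets. P-values were two-sided. Precision is limited by having 3 arrays per group.

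Symbols of 19059 probe sets were updated to RefSeq names of GRCh38.p14. A gene is represented by its brightest probe set unless another is named, and in the 7 lists by its brightest kept one. All 8 genes are named, with the 3 genes of smallest p in each list and the 4 genes most like F2RL1 and F3; GNAQ, CXCL8, CCN2, AGGF1 and its neighbours were added after their values were seen. Members and lists were chosen with earlier results of these data known.

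Alternatives were an unpaired fit, offsets of 1 and 64, scaling by quantiles or medians, the filter at the 60th percentile or left out, no trend, array weights, leaving out each experiment, leaving out the siLuc array of experiment 1, and the median over a gene's probe sets.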

Additional observations from a re-analysis of the deposited data

How the results depend on the processing

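Under 13 alternatives the log2 fold change stayed above 0 for F2RL1 (0.96 to 1.47 on the brighter and 1.12 to 1.58 on the second probe set) and F2R (0.61 to 1.33), and below 0 for F3 (-0.55 to -0.13). The highest value of each of these, that of F3 nearest 0, came with median centring, which moved the median of all kept probe sets to 0.356. Relative to that median they were 1.11 and 1.23 for F2RL1, 0.97 for F2R and -0.48 for F3. The unpaired fit, the changed or absent filter and the fit without trend cannot change a log2 fold change. Their unchanged signs therefore carry no information. Over the same alternatives PROCR ran from -0.14 to 0.33, TFPI2 from -0.53 to 0.09 on the brighter probe set, and THBD from -0.29 to 1.49 on the dimmer probe set. Of the 5 TFPI probe sets the 3 dimmest reached -0.06, -0.25 and -0.02, each with arrays left out.

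With no replicate block, 0 probe sets passed, as with the paired fit, where the smallest adjusted p was 0.133. With siLuc 2 and siLuc 3 exchanged in the block, chosen after seeing the data, 0 passed. With array weights 177 passed, and leaving out the siLuc array of experiment 1 with no block gave 0. Leaving out 1 experiment at a time gave 33 to 215, from fits with fewer residual degrees of freedom, which are not read as calls. The next counts are over all 8 genes and include F2RL2, which did not pass the filter. With all arrays 1 member gene was lower without overlap, F2RL2. The number was 2 with quantile normalization and 2 whenever an experiment or the siLuc array of experiment 1 was left out. The gene added was F3 with quantile normalization and without experiment 2 or 3, and TFPI2 without experiment 1 or its siLuc array. Groups of fewer arrays are more easily free of overlap, and the share among all kept probe sets was not counted under these settings. A higher count with arrays left out is therefore not read as a result about the genes. The cause of these shifts was not tested. Dim probe sets, F2RL2 foremost, are limited by signal near background.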
